A study of Arabidopsis thaliana with 36 samples.

Results

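The Mediator kinase module is represented in Arabidopsis by 5 genes, which were taken by their locus identifiers from the 36632 genes in each count file. They are CDK8 (AT5G63610), the cyclin C genes CYCC1;1 (AT5G48640) and CYCC1;2 (AT5G48630), MED12 (AT4G00450) and MED13 (AT1G55325). Mediator is the large complex that passes signals from DNA-bound transcription factors to RNA polymerase II, and its kinase module is a part that can attach to and leave the core complex. CDK8 is the kinase, cyclin C is the subunit that binds and activates it, MED12 is known from animals to activate the kinase with cyclin C, and MED13 is known from yeast and animals as the large subunit that links the module to core Mediator. The 5 genes were followed through heat stress (HS), through the loss of CDK8, in which the other 4 could rise or fall, and through the loss of HSFA2, a heat-induced transcription factor.

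Polyadenylated RNA of whole seedlings was sequenced from 3 genotypes in the Col-0 background, which were wild type (WT), hsfa2 and cdk8. Both mutants are T-DNA insertion lines, and each is represented by a single line. Each genotype received 4 treatments: no heat stress (NHS), a priming HS on day 5 (P), a triggering HS on day 7 (T), or both (P+T), where one HS was 1 h at 37 °C. Harvest was on day 7 for every group. The 12 groups held 3 biological replicates each, 36 libraries in all.

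Between 29409330 and 31224343 read pairs per library were assigned to genes. The heat shock protein gene HSP101 (AT1G74310) had 5.06 to 69.7 CPM (counts scaled to a fixed library total) in the 18 NHS and P libraries and 11160 to 18050 CPM in the 18 T and P+T libraries, so no library went against its heat label. In hsfa2, HSFA2 (AT2G26150) had 894 to 1179 CPM at T against 4610 to 4983 CPM in WT. Shoot markers such as RBCS1A and root markers such as SCR were read in every library. The summed level of the 4 root markers (SCR, SHR, EXPA7, LRX1) was 103 to 137 CPM in WT NHS and 13.1 to 17.5 CPM in WT T, scaled by library total alone. With the TMM scaling used below, 3 of the 4 were called lower, where 32.5% of all genes were. Over all 4 markers, called or not, the log2 fold changes ran from -2.54 to -0.20. Root transcripts thus moved with heat to unlike degrees, and their part in the heat values below was not tested. With whole seedlings, fewer cells of a type and less RNA per cell cannot be told apart.

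A pair of libraries stood apart for long transcripts. Among 139 genes with at least 6 kb of exon, the median deviation from the other libraries of the group was -0.97 (log2) in replicate 3 of cdk8 NHS and -0.49 in replicate 1 of hsfa2 P, against -0.30 to 0.54 in the other 34 libraries. MED12 and MED13 have 8.20 and 7.66 kb of exon, and both were low in those libraries. In cdk8 NHS, replicate 3 had 700 MED13 counts against 1603 and 1592 in the others, and 1709 MED12 counts against 2909 and 2915, so the MED12 and MED13 fold changes that rest on these libraries, and calls of other members that change without them, are also given without them.

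On the TAIR10.1 assembly (RefSeq) CDK8 lies on chromosome 5 at 25463362 to 25465922 on the minus strand, with its whole coding sequence in 1 exon. The 205 bases before its start reach back to the end of the next gene, AT5G63620, which lies on the same strand. They are shown because CDK8 had the lowest fold change of the 5 genes for T against NHS in WT. No base is in capitals, which would mark a match to the heat shock element, the site of heat shock factors, written as GAANNTTC or TTCNNGAA and read on both strands.
CDK8 upstream gap, chr5:25465923-25466127, minus strand: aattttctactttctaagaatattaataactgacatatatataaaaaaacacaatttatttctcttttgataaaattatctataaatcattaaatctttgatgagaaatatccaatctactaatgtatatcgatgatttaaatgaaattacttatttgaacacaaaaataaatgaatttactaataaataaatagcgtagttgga

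These letters were in none of the 250-base windows before the starts of the 5 genes. They were in 16.3% of the 36630 such windows of all genes. The window of APX2 (AT3G09640), an ascorbate peroxidase gene induced by HS, held GAANNTTC from base -61 and TTCNNGAA from base -148, while those of HSP70 (AT3G12580) and HSP101 held neither. A missing match says only that these letters are not in the window.

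The cyclin C genes are neighbours on the minus strand of chromosome 5. AT5G48640 spans 19723388 to 19725748 and AT5G48630 spans 19721465 to 19723307, so that only 80 bases separate the end of the former from the start of the latter. AT5G48630 also shares 13 bases with AT5G48620 on the other strand. The coding models compared are the longest pair with equal exon lengths, so their match in exon number and length was set by that choice. They have 9 exons each, and 210 of the 762 coding bases differ (72.4% identical). The longest coding model of AT5G48630 has 8 exons and 771 bases. The longest run of coding bases without a difference was 15, so reads over the coding sequence differ between the copies. Coding exon 8 is the longest and carries the most differences (39 of 148 bases), though not the highest share, since exon 6 carries 37 in 115 bases. Exon 8 is shown for both copies with the differing bases in capitals, after the gap that separates the genes.
Gap between CYCC1;1 and CYCC1;2, chr5:19723308-19723387, minus strand: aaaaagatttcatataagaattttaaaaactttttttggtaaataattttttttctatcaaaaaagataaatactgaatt
CYCC1;1, chr5:19723878-19724025, minus strand: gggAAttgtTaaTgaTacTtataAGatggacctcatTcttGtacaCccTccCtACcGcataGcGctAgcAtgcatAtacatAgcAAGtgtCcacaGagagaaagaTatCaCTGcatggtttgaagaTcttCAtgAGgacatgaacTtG
CYCC1;2, chr5:19721855-19722002, minus strand: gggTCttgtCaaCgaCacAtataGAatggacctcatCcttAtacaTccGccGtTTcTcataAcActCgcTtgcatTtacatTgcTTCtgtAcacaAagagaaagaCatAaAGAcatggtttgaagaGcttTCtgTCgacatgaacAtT

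MED12 lies on chromosome 4 at 200874 to 211309 on the plus strand and MED13 on chromosome 1 at 20637333 to 20648434 on the plus strand. MED12 overlaps AT4G03615 by 80 bases and AT4G00460 by 310 bases, both on the other strand. Because the strand setting of the counting is not given in the sources used here, reads in those overlaps cannot be told apart.

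All 5 genes were read in every library, with 104 to 1558 counts for CDK8, 79 to 369 for AT5G48640, 324 to 732 for AT5G48630, 778 to 2915 for MED12 and 419 to 1603 for MED13, and all 5 passed the filter on low counts. Levels are given as CPM scaled by TMM, which sets each library by the bulk of its genes. Per kb of exon, CDK8 was the most abundant member in WT NHS, with 17.1 ± 1.12 TMM-scaled CPM per kb (SD, n = 3). AT5G48630 followed with 13.35 ± 1.03, MED12 with 7.06 ± 0.105, AT5G48640 with 4.43 ± 0.507 and MED13 with 4.09 ± 0.331, and only the last pair in this order overlapped. At T the order changed in WT, where AT5G48630 reached 15.3 ± 0.324 and CDK8 had 10.9 ± 0.549 TMM-scaled CPM per kb.

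**Figure D1:**
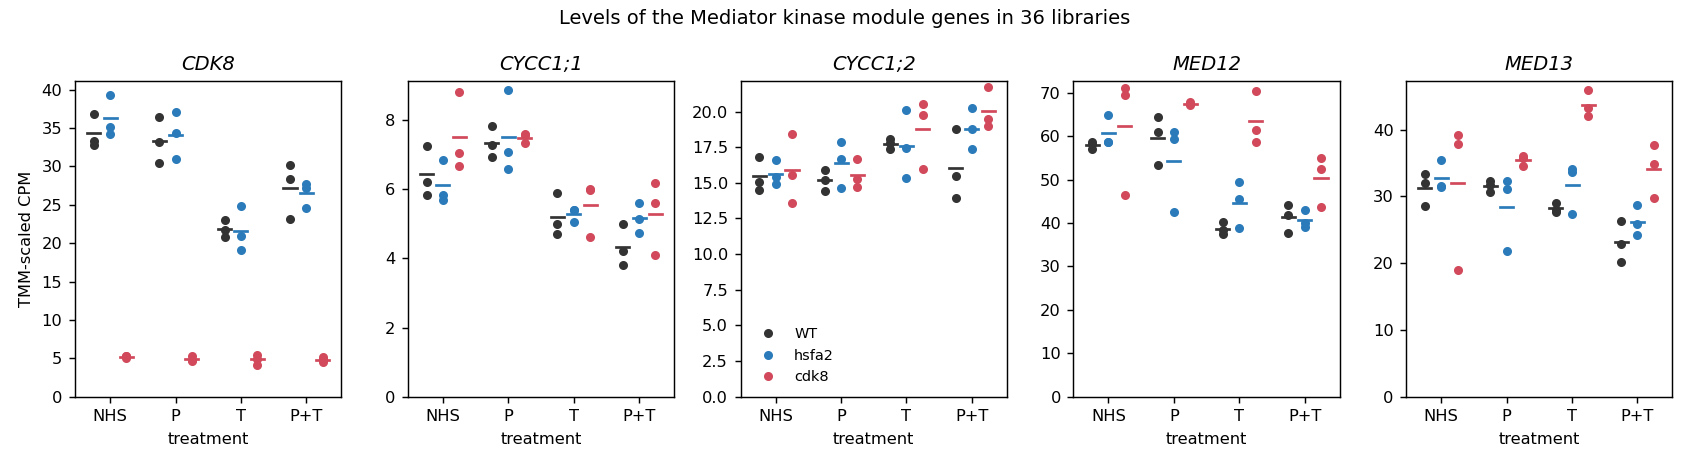
Levels of the 5 genes in TMM-scaled CPM (linear axes from 0) by treatment for WT, hsfa2 and cdk8, where each point is 1 library and each bar the mean of 3. CDK8 falls from 32.7 to 36.9 in WT NHS to 20.8 to 23.0 in WT T and stays at or below 5.45 in every cdk8 library, while MED12 and MED13 are low in 1 of the 3 cdk8 NHS libraries.

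CDK8, the kinase, was lower after the triggering HS. Its level was 36.9, 33.3 and 32.7 TMM-scaled CPM in the WT NHS libraries and 23.0, 21.7 and 20.8 in the WT T libraries. The groups did not overlap. The log2 fold change for T against NHS was -0.65 (SE 0.11, adjusted p = 4.3e-06, edgeR), and in hsfa2 it was -0.74 (SE 0.11, adjusted p = 5.2e-07). After priming, the fall was shallower: P+T against P gave -0.29 in WT (SE 0.11, adjusted p = 0.016) and -0.36 in hsfa2 (SE 0.11, adjusted p = 0.0037). The WT call for P+T against P was lost without WT P replicate 2 (-0.23, adjusted p = 0.093) or WT P+T replicate 2 (-0.19, adjusted p = 0.14), with a trend on transcript length taken out (-0.20, adjusted p = 0.090) and with only the groups compared in the fit (-0.27, adjusted p = 0.067).

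In WT the TMM-scaled level of CDK8 was higher after P+T than after T, while its raw counts overlapped (538 to 720 against 433 to 544). WT P+T libraries had 30.2, 23.1 and 28.3 TMM-scaled CPM, all above the 3 WT T libraries, by a log2 fold change of 0.32 (SE 0.11, adjusted p = 0.040), and CDK8 was the 1 member higher in this comparison, against 9.66% of all genes called higher. Leaving out any WT T library, or WT P+T replicate 1 or 3, ended the call, with values of 0.23 to 0.36 and adjusted p = 0.051 to 0.22. In hsfa2 the same comparison gave 0.29 (SE 0.11, adjusted p = 0.098), where no member was called (4.76% of all genes were called higher), 1 had an unadjusted p under 0.05 and DESeq2 called none.

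MED12, the activator of the kinase, fell with CDK8. WT NHS libraries had 57.0, 58.2 and 58.6 TMM-scaled CPM and WT T libraries 38.3, 40.2 and 37.4, again without overlap. T against NHS gave -0.58 in WT (SE 0.13, adjusted p = 0.00029) and -0.45 in hsfa2 (SE 0.13, adjusted p = 0.0039), and P+T against P gave -0.53 (SE 0.13, adjusted p = 0.00076) and -0.42 (SE 0.13, adjusted p = 0.0065). The hsfa2 value for P+T against P was -0.33 without hsfa2 P replicate 2 (adjusted p = 0.051), and with both libraries that stood apart left out it was -0.56 (adjusted p = 2.6e-05).

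The cyclin C genes differed from each other under heat. AT5G48640 fell after P+T, from 7.28, 7.82 and 6.93 TMM-scaled CPM in WT P to 4.99, 4.21 and 3.80 in WT P+T. P+T against P gave -0.76 in WT (SE 0.15, adjusted p = 6.4e-05), -0.54 in hsfa2 (SE 0.15, adjusted p = 0.0022, -0.40 without both libraries that stood apart, adjusted p = 0.026) and -0.50 in cdk8 (SE 0.15, adjusted p = 0.0037), the last being -0.35 without cdk8 P+T replicate 2 (adjusted p = 0.052). T against NHS gave -0.31 in WT (SE 0.15, adjusted p = 0.068), which passed the threshold without WT NHS replicate 1 (-0.38, adjusted p = 0.048) or WT T replicate 3 (-0.41, adjusted p = 0.037).

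AT5G48630 was 15.1, 14.5 and 16.8 TMM-scaled CPM in WT NHS and 17.4, 18.1 and 17.8 in WT T. The log2 fold change was 0.20 in WT (SE 0.12, adjusted p = 0.15) and 0.17 in hsfa2 (SE 0.12, adjusted p = 0.22), and by library size alone its sign turned in both (-0.57 and -0.61). MED13, the link to core Mediator, gave -0.15 in WT for T against NHS (SE 0.17, adjusted p = 0.44) and -0.45 for P+T against P (SE 0.17, adjusted p = 0.020), the latter being -0.36 without WT P+T replicate 3 (adjusted p = 0.10). In hsfa2, MED13 gave -0.049 for T against NHS (SE 0.17, adjusted p = 0.81) and -0.11 for P+T against P (SE 0.17, adjusted p = 0.57), the latter being -0.27 without both libraries that stood apart (adjusted p = 0.031).

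Counted over the module in WT, 2 of 5 genes were lower at T against NHS (CDK8 and MED12) and none was higher, where 32.5% of all 20847 genes tested were called lower and 29.9% higher. For P+T against P, 4 of 5 were lower, with a median log2 fold change over the module of -0.45, against 34.2% of all genes and an all-gene median of -0.061. In hsfa2, 2 of 5 were lower at T (31.6% of all genes) and 3 of 5 at P+T against P (32.2%). No member passed a 2-fold change in any heat comparison. A count of 2 of 5 lies near the share of all genes, so it is no result about the module as a whole. The 4 of 5 in WT became 2 of 5 with a trend on transcript length taken out. Genes with at least 6 kb of exon, the class of MED12 and MED13, had a median of -0.31 in WT for P+T against P.

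The scaling sets the size of these falls. By library size alone the all-gene median moved to -0.82 for WT T against NHS, and the calls went from 6240 higher and 6785 lower to 1459 higher and 14590 lower. All 5 members were then lower. CDK8 gave -1.42 on that scale and MED12 -1.36, AT5G48640 -1.09 and MED13 -0.93, further down than the median gene, while AT5G48630 gave -0.57, above it. The ratio to AT4G26410, the reference gene of the qRT-PCR in the study, gave -1.39 for CDK8, -1.32 for MED12, -1.05 for AT5G48640, -0.88 for MED13 and -0.53 for AT5G48630. Either scaling multiplies all genes of a library by 1 number, so the order of the members could not differ. On the TMM scale AT4G26410 was itself called higher at T against NHS in WT (0.74), hsfa2 (0.87) and cdk8 (0.69).

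No change of a member by day 7 was detected after a priming HS on day 5. P against NHS called 0 of 5 genes in WT, in hsfa2 and in cdk8 by edgeR, and 0 by DESeq2, with 0, 1 and 0 genes at an unadjusted p under 0.05. The shares of all genes called were 0.494%, 0.0144% and 0.0288%. Log2 fold changes were between -0.21 and 0.29, and the widest 95% intervals reached -0.54 and 0.58. Without both libraries that stood apart they were between -0.15 and 0.15 in hsfa2 and between -0.12 and 0.094 in cdk8.

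**Figure D2:**
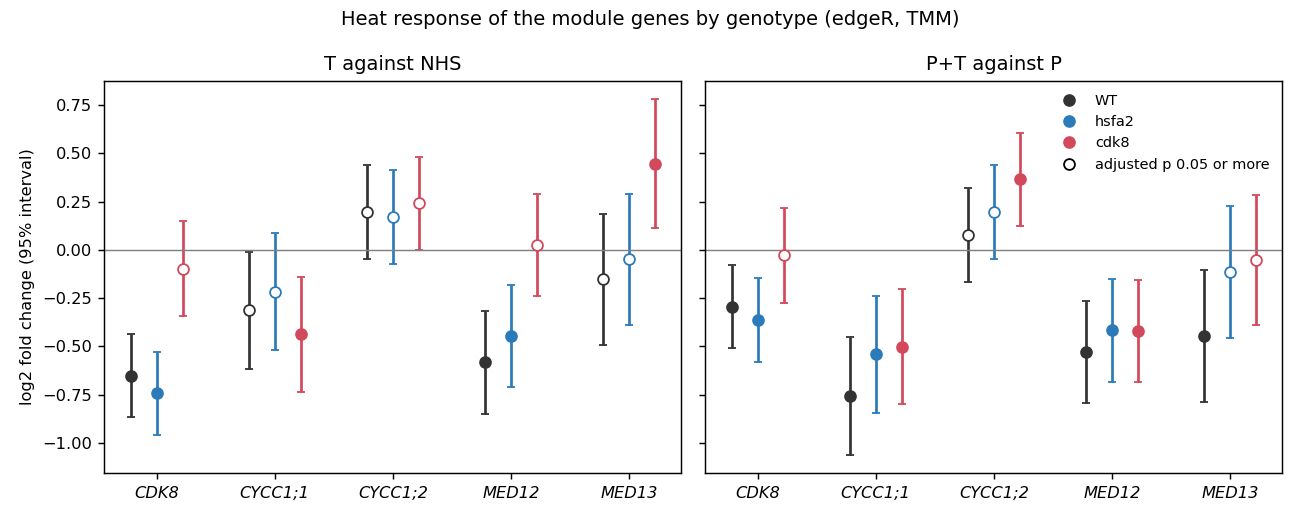
Log2 fold change with its 95% interval (edgeR) for each gene by genotype, for T against NHS (left) and P+T against P (right), where filled points have an adjusted p under 0.05. CDK8 and MED12 lie below 0 in WT and hsfa2 in both panels, and AT5G48640 in all 3 genotypes at P+T, while AT5G48630 lies above 0 in every genotype on this scaling and below 0 by library size alone.

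Ratios of counts within a library do not depend on any scaling. The count of AT5G48640 divided by that of AT5G48630 was 0.369, 0.388 and 0.500 in WT NHS and 0.271, 0.275 and 0.331 in WT T. The NHS and T ranges overlapped in hsfa2 (0.343 to 0.459 and 0.268 to 0.351) and in cdk8 (0.361 to 0.646 and 0.225 to 0.374). Averaged over the 3 genotypes the ratio changed by -0.52 (log2) at T against NHS (exact stratified permutation test over 8000 regroupings, two-sided p = 0.001) and by -0.82 at P+T against P (p = 0.00025, the smallest this exact test can give). All P+T ratios were below all P ratios in each of the 3 genotypes. The balance of the tandem copies thus moved toward AT5G48630 under heat, and between cdk8 and WT over the 4 treatments the ratio differed by 0.034 (log2, two-sided exact p = 0.76).

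The balance of the large subunits moved as well. MED13 counts divided by MED12 counts were 0.500 to 0.570 in WT NHS and 0.721 to 0.746 in WT T. In hsfa2 they were 0.536 to 0.546 and 0.690 to 0.741, and in cdk8 0.410 to 0.551 and 0.653 to 0.716. The ratio rose by 0.43 (log2) at T against NHS over the 3 genotypes (exact p = 0.00025, two-sided, the smallest possible) and on average by 0.25 at P+T against P (exact p = 0.0013), and between cdk8 and WT it differed by 0.017 (exact p = 0.77). In WT the P libraries (0.500 to 0.595) and the P+T libraries (0.534 to 0.596) overlapped, while in hsfa2 the ranges were 0.511 to 0.531 and 0.607 to 0.666, and in cdk8 0.513 to 0.537 and 0.666 to 0.687. The lowest cdk8 NHS ratio, 0.410, was that of replicate 3, and the others were 0.546 and 0.551. CDK8 counts divided by MED12 counts overlapped between WT NHS (0.558 to 0.648) and WT T (0.538 to 0.600), with a difference of -0.18 (log2) over WT and hsfa2 (exact p = 0.090). Over the 2 denominators, 24 such ratio comparisons were computed, and the p-values are not adjusted.

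**Figure D3:**
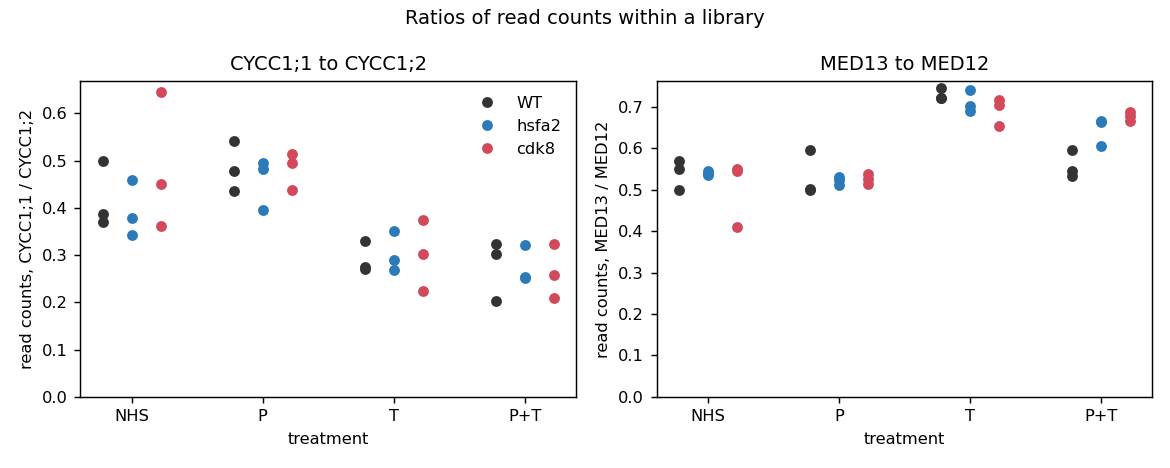
Ratio of read counts of AT5G48640 to AT5G48630 (left) and of MED13 to MED12 (right) by treatment, linear axes from 0, 1 point per library. The cyclin ratio is 0.343 to 0.646 in the NHS libraries and at most 0.374 in the T and P+T libraries, and the MED13 ratio is at most 0.570 in NHS libraries and at least 0.653 in T libraries.

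In the cdk8 line the CDK8 gene kept a residue of reads. CDK8 had 5.08, 5.29 and 5.25 TMM-scaled CPM in cdk8 NHS, and 5.45, 4.99 and 4.14 in cdk8 T. The residue was 15.2% of the WT mean in NHS seedlings, 14.8% after P, 22.2% after T and 17.8% after P+T. Over the 4 treatments the log2 fold change against WT was -2.53 (SE 0.058, adjusted p = 2.0e-24), and CDK8 was the 1 member lower, where 19.4% of all genes were called lower. Gene counts do not show where in the gene the remaining reads lie. For T against NHS the residue gave -0.096 (SE 0.12, adjusted p = 0.51), where the intact gene gave -0.65 in WT. The difference of the T responses between cdk8 and WT was 0.55 (SE 0.16, adjusted p = 0.041), 1 of 5 members called where 0.974% of all genes were called higher. That call held only without WT NHS replicate 3, WT T replicate 1 or cdk8 T replicate 3, and without any other single library of the 4 groups it was 0.45 to 0.58 with an adjusted p of 0.055 to 0.19.

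A neighbour of CDK8 was also lower in cdk8. AT5G63600 (FLS5), a gene of the flavonol synthase family that lies 793 bases beyond the 3′ end of CDK8 on the same strand, had 2835 to 3078 counts in WT NHS and 1650 to 1961 in cdk8 NHS. It was lower in cdk8 at each treatment (-0.77 to -0.84) and on average by -0.81 (log2, SE 0.062, adjusted p = 7.0e-12). Whether the insertion bears on it was not tested. AT5G63620, on the other side, gave 0.05 (SE 0.093, adjusted p = 0.69).

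MED12 and MED13 were higher in cdk8 at the triggering HS. MED12 had 38.3, 40.2 and 37.4 TMM-scaled CPM in WT T and 70.3, 58.6 and 61.5 in cdk8 T. All 3 cdk8 libraries were at or above the level of unstressed WT (57.0 to 58.6), and the log2 fold change was 0.71 (SE 0.13, adjusted p = 0.00014), 1.64-fold. MED13 had 27.6, 29.0 and 27.9 in WT T and 45.9, 42.0 and 43.2 in cdk8 T, above every WT library of any treatment. Its log2 fold change was 0.63 (SE 0.17, adjusted p = 0.0059). Both calls held when any single library of the comparison was left out (0.63 to 0.77 and 0.59 to 0.66), and 10.2% of all genes were called higher in this comparison. The summed root markers were 14.3 to 30.3 CPM in cdk8 T against 13.1 to 17.5 in WT T, and their part was not tested. At T, 1 of the 4 root markers was called higher in cdk8 (SCR, 0.98, adjusted p = 0.0014) and 1 of the 3 shoot markers (RBCS1A, 0.50, adjusted p = 0.014). On average over the treatments SCR (0.45, adjusted p = 0.0011) and SHR (0.39, adjusted p = 0.017) were higher and LRX1 lower (-0.44, adjusted p = 0.042), and among the shoot markers RBCS1A was higher (0.36, adjusted p = 0.00029) and LHCB1.3 lower (-0.19, adjusted p = 0.031).

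Long transcripts as a class moved the same way at T. Among 158 genes with at least 6 kb of exon, the median log2 fold change of cdk8 against WT at T was 0.44 and 92.4% were above 0. Genes of 4 to 6 kb had a median of 0.32, genes of 2 to 4 kb 0.11, genes of 1 to 2 kb -0.028 and genes under 1 kb -0.11. MED12 stood at percentile 89.9 and MED13 at percentile 82.3 of the 158 long genes. With each library's trend on transcript length taken out, MED12 gave 0.25 (adjusted p = 0.098) and MED13 0.20 (adjusted p = 0.092), so neither passed the threshold. The part of the length trend in these differences was not tested otherwise. By library size alone the all-gene median moved from 0.026 to 0.26 in this comparison, with 6532 genes higher and 1579 lower against 2116 and 2509 by TMM, and MED12 gave 0.95 and MED13 0.87.

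**Figure D4:**
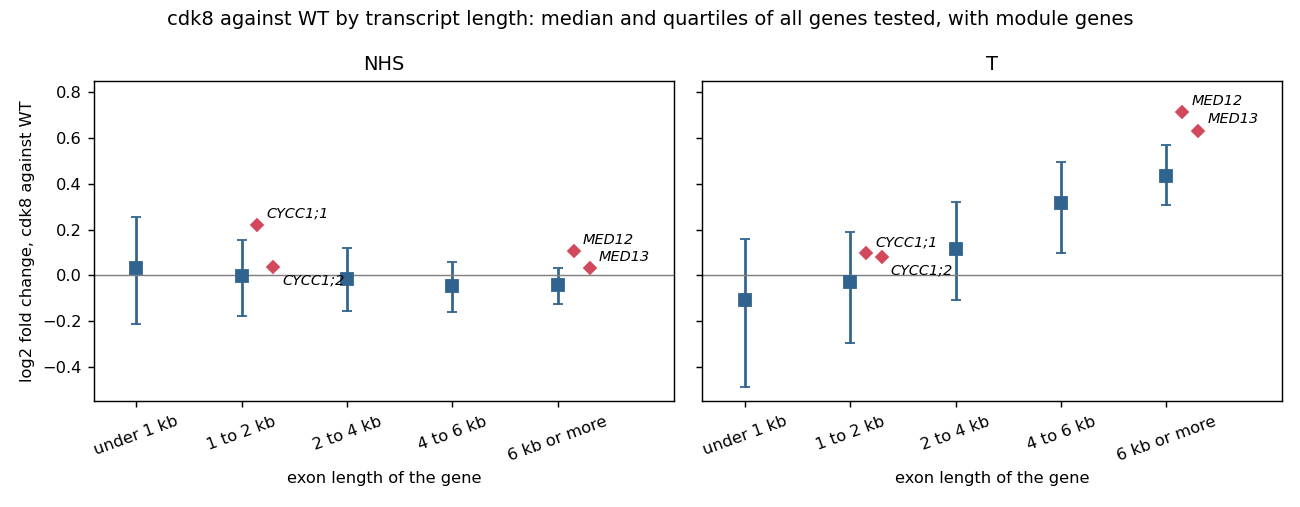
Log2 fold change of cdk8 against WT at NHS (left) and T (right) by exon length, where squares are class medians with quartiles over all genes tested and diamonds the module genes. At T the class median climbs from -0.11 under 1 kb to 0.44 at 6 kb or more, with MED12 (0.71) and MED13 (0.63) above the upper quartile, while at NHS the class medians lie between -0.048 and 0.032.

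At P+T the length classes differed less (median 0.088 for 6 kb or more), and MED13 was still higher. MED13 had 26.3, 22.9 and 20.2 TMM-scaled CPM in WT P+T and 37.8, 29.7 and 34.9 in cdk8 P+T, a log2 fold change of 0.56 (SE 0.17, adjusted p = 0.017), which was the 1 member called higher against 6.49% of all genes. Without WT P+T replicate 2 or 3, or cdk8 P+T replicate 1 or 3, it was 0.47 to 0.55 with an adjusted p of 0.052 to 0.092, while with the length trend taken out it was 0.44 (adjusted p = 0.00023). MED12 gave 0.29 at P+T (SE 0.13, adjusted p = 0.13), and the same value was called without both libraries that stood apart (adjusted p = 0.027).

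Without HS the large subunits did not differ detectably between cdk8 and WT. MED12 had 71.0, 69.4 and 46.5 TMM-scaled CPM in cdk8 NHS and MED13 39.1, 37.9 and 19.0, where replicate 3 is a library that stood apart. The log2 fold changes against WT were 0.11 (SE 0.13, adjusted p = 0.75) and 0.033 (SE 0.16, adjusted p = 0.95), and without replicate 3 they were 0.28 (adjusted p = 0.20) and 0.30 (adjusted p = 0.19). At P, MED12 gave 0.18 (SE 0.13) and MED13 0.17 (SE 0.16), with adjusted p = 0.55 and 0.71.

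Neither cyclin C gene was called in cdk8 against WT, though some alternatives called them. Over the 4 treatments AT5G48640 gave 0.16 (SE 0.074, 95% interval 0.0067 to 0.31, adjusted p = 0.095) and AT5G48630 gave 0.12 (SE 0.059, 95% interval -0.0015 to 0.24, adjusted p = 0.12). By comparison MED12 gave 0.32 (SE 0.065, adjusted p = 0.00021) and MED13 0.35 (SE 0.083, adjusted p = 0.0012), so 2 of the 4 partners were called higher on average, where 17.1% of all genes were. With the length trend taken out these averages were 0.18 for MED12 and 0.20 for MED13, still called (adjusted p = 0.0076 and 0.00024), and without both libraries that stood apart they were 0.36 and 0.41, also called. AT5G48630 was highest in cdk8 P+T, at 19.0, 19.5 and 21.7 TMM-scaled CPM against 15.5, 13.9 and 18.8 in WT P+T. That difference was 0.32 (SE 0.12, adjusted p = 0.059), and a fit blocked on the replicate number gave 0.33 (adjusted p = 0.011). It was also called without WT P+T replicate 3 (0.45, adjusted p = 0.016), without both libraries that stood apart (0.32, adjusted p = 0.040), with the length trend taken out (0.36, adjusted p = 0.011) and by library size (0.50, adjusted p = 0.00061). The averages passed the threshold for AT5G48640 without cdk8 T replicate 3 (0.19, adjusted p = 0.0497) or cdk8 P+T replicate 2 (0.20, adjusted p = 0.031), and for AT5G48630 without WT P+T replicate 3 (0.15, adjusted p = 0.044), with the block (0.12, adjusted p = 0.042) or with the length trend taken out (0.15, adjusted p = 0.020). By library size both averages were called (0.29 and 0.25). No partner reached a 2-fold difference in any treatment, and the upper ends of the 95% intervals at NHS were 0.51, 0.28, 0.37 and 0.37 for AT5G48640, AT5G48630, MED12 and MED13.

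**Figure D5:**
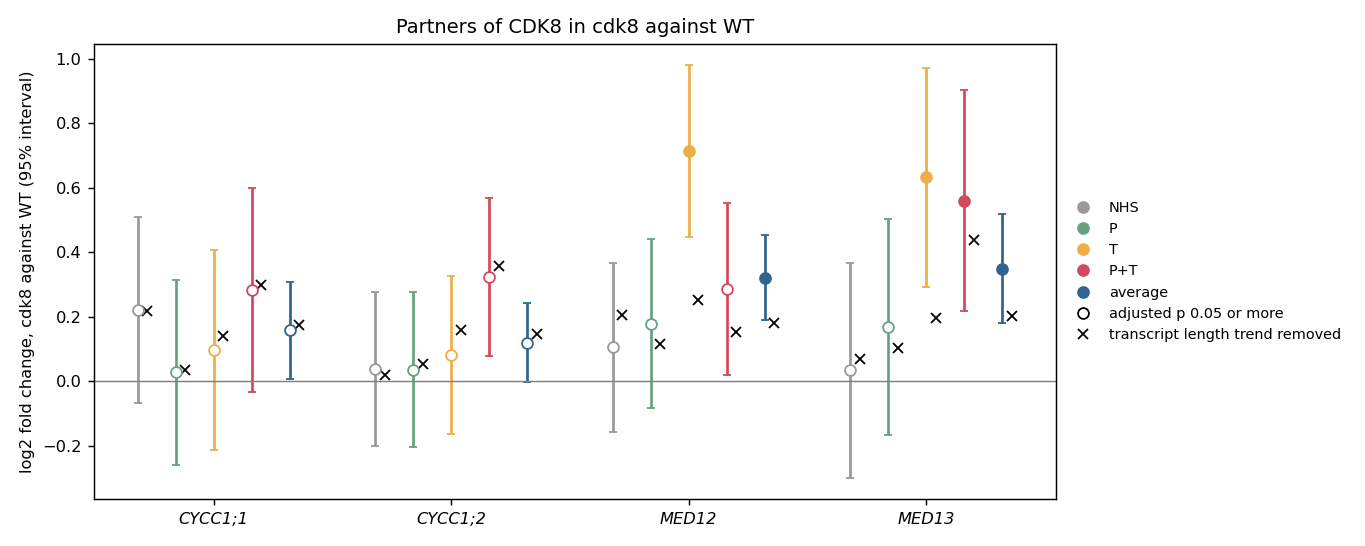
Log2 fold change of cdk8 against WT with its 95% interval (edgeR) for the 4 partners of CDK8 at each treatment and on average, where filled points have an adjusted p under 0.05 and crosses give the value with the length trend taken out. MED12 and MED13 at T drop from 0.71 and 0.63 to 0.25 and 0.20 with the length trend taken out. The uncorrected values of the cyclin C genes lie between 0.028 and 0.32 over the treatments and the average.

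The heat responses within cdk8 share these libraries. MED12 gave 0.026 at T against NHS (SE 0.13, adjusted p = 0.88), where the sign turned without cdk8 NHS replicate 3 (-0.15), and it fell at P+T against P (-0.42, SE 0.13, adjusted p = 0.0058). Genes with at least 6 kb of exon had a median of 0.19 in cdk8 at T against NHS, and -0.26 in WT. For P+T against P their medians were -0.23 in cdk8 and -0.31 in WT. MED13 was higher at T against NHS (0.45, SE 0.16, adjusted p = 0.020), but without replicate 3 of cdk8 NHS it was 0.18 (adjusted p = 0.23). Counted over the module, 1 of 5 was higher and 1 of 5 lower at T (29.2% and 30.2% of all genes), and at P+T against P 1 was higher and 2 were lower (29.9% and 33.7%). AT5G48640 fell at T (-0.44, SE 0.15, adjusted p = 0.011), except without cdk8 NHS replicate 2 (-0.31, adjusted p = 0.095) or cdk8 T replicate 3 (-0.32, adjusted p = 0.085). AT5G48630 rose at P+T against P (0.37, SE 0.12, adjusted p = 0.0080), but by library size it gave -0.26 (adjusted p = 0.023). At T against NHS it gave 0.24 (SE 0.12, adjusted p = 0.077), 0.36 without cdk8 NHS replicate 3 (adjusted p = 0.014), 0.37 without cdk8 T replicate 1 (adjusted p = 0.016) and 0.25 with the replicate block (adjusted p = 0.022). The difference of the T responses between cdk8 and WT was 0.61 for MED12 (SE 0.18, adjusted p = 0.053) and 0.60 for MED13 (SE 0.23, adjusted p = 0.18). For MED12 that difference passed the threshold with the replicate block (0.61, adjusted p = 0.042) and with DESeq2 (0.59, adjusted p = 0.034), without cdk8 NHS replicate 1 (0.71, adjusted p = 0.022), cdk8 NHS replicate 2 (0.69, adjusted p = 0.032) or cdk8 T replicate 2 (0.66, adjusted p = 0.046), and with the length trend taken out it was 0.044. For MED13 it was 0.13 with the trend taken out. Without cdk8 NHS replicate 3, the library that stood apart, it was 0.44 for MED12 (adjusted p = 0.19) and 0.34 for MED13 (adjusted p = 0.44).

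No difference of the module from WT was detected in hsfa2. Over the 4 treatments the log2 fold changes of the 5 genes lay between 0.016 and 0.086, and the 95% intervals between -0.10 and 0.24. None was called by edgeR or by DESeq2 and none had an unadjusted p under 0.05, where 6.07% of all genes were called. Without both libraries that stood apart the averages lay between -0.00021 and 0.11 and none was called. At T, when HSFA2 itself is most abundant in WT, the 5 differences were between -0.013 and 0.21.

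The rest of Mediator gave a background for these values. Of 29 core Mediator genes, 6 were higher and 5 lower in WT at T against NHS, fewer than at the shares of all genes (29.9% and 32.5%), with a median log2 fold change of 0.026, from MED19B (1.24, adjusted p = 3.5e-07) to MED25 (-0.54, adjusted p = 0.00097). In cdk8 against WT on average, 0 of the 29 were called by edgeR, where 36.5% of all genes were called in either direction. DESeq2 called 0, while 3 had an unadjusted p under 0.05, and the median was 0.013. At T, 2 of the 29 were higher in cdk8, where 10.2% of all genes were, so the count is no result about the list. They were the tail subunit genes MED15A (0.54, adjusted p = 0.043) and MED33A (0.40, adjusted p = 0.033). With introns they span 6579 and 6230 bases. Long transcripts as a class were higher in this comparison, and the part of the length trend in these values was not tested. Among 10 genes of the other transcription kinases and their cyclins, 2 were higher in cdk8 on average, a share near the 17.1% of all genes and so no result about the list. These were the TFIIH kinase gene CDKD;1 (0.33, SE 0.10, adjusted p = 0.013) and its cyclin gene CYCH;1 (0.28, SE 0.073, adjusted p = 0.0034). On the TMM scale CDKC;2, a kinase of the P-TEFb type, rose at T in WT by 0.71 (adjusted p = 4.7e-08), where the module kinase CDK8 fell. By library size alone the all-gene median of that comparison was -0.82, so the rise of CDKC;2 itself, and not only its size, depends on the scaling.

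The genes whose levels were most like each member are given as a description, since libraries of a treatment share their state. For CDK8 over the 24 WT and hsfa2 libraries they were AT1G61690 (Pearson r = 0.96), ARO2 (0.96) and AT2G42030 (0.95). For AT5G48640 over 36 libraries they were TRFL1 (0.87), CMT2 (0.87), a chromomethylase gene, and AT4G16470 (0.86), and for AT5G48630 AtRZ-1b (0.84), AT5G20500 (0.82) and LOL2 (0.82). MED12 was most like AT4G01290 (0.95), AT3G11130 (0.92), a clathrin heavy chain gene, and PKDM7D (0.92), and MED13 most like FAB1C (0.93), AT2G26780 (0.91) and HAC12 (0.89). All 6 genes nearest to MED12 and MED13 have at least 4.43 kb of exon. Between the members, r was 0.75 for MED12 with MED13 and -0.48 for AT5G48640 with AT5G48630.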

How the data were processed

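RNA was measured in 36 seedling libraries (3 genotypes, 4 treatments, 3 biological replicates). The authors sequenced oligo-dT libraries as read pairs, aligned them with STAR 2.7.10a to TAIR10 and deposited raw counts per gene. The strand setting of the counting is not given in the sources used here. Sums of counts per library were 29409330 to 31224343, between 5.62% and 7.10% of the pairs were ambiguous between genes, and 0.506% to 1.56% lay in no gene. These rows were left out of library sizes.

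The deposited counts were tested with edgeR 4.0.16 (quasi-likelihood, 12-group model, TMM, filterByExpr with a minimum count of 10), which left 20847 genes. Adjusted p-values are Benjamini-Hochberg over all of them, and "called" means an adjusted p under 0.05. The SE is the absolute log2 fold change divided by the root of F. TMM factors were 1.24 to 1.35 in NHS and P and 0.694 to 0.930 in T and P+T libraries. The test was checked on simulated data. Names and coordinates come from RefSeq TAIR10.1, in which all 36632 identifiers matched.

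Alternatives were DESeq2 1.42.0, other scalings and filters, a replicate block, only the groups compared, and each library left out. Removal of the length trend and of both libraries that stood apart was chosen after seeing the data. The members and lists were chosen with earlier results of these data known. Named genes were the members, the neighbours of CDK8, the checks, the 3 genes most like each member by Pearson r of log2(TMM-scaled CPM + 1), and from each list the 2 called genes of largest change in cdk8 against WT on average. MED19B, MED25, MED15A, MED33A and CDKC;2 were chosen after their values were seen. Same-numbered libraries of WT and cdk8 deviated together (all 3 correlations over 0.1) at NHS, T and P+T and not at P.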

Additional observations from a re-analysis of the deposited data

Results flagged for a closer look

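The T response of the CDK8 gene differed between cdk8 and WT by 0.55491 on the log2 scale (SE 0.16, adjusted p = 0.041, edgeR interaction term), since its remaining reads in cdk8 gave -0.096 for T against NHS and the intact gene gave -0.65 in WT. It was flagged because the test of the difference between the genotypes itself passed the threshold. The call was lost in 9 of 12 fits with 1 library left out, and under several alternatives given below. The cause of the difference was not tested.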

How the results depend on the processing

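In all, 57 fold changes and 5 counts of genes were recomputed under each alternative. Of these 62 results, 61 kept their direction and side of the threshold with DESeq2, 61 with DESeq2 size factors, 60 with every gene kept, 60 with a mean CPM of at least 1, 58 with the replicate block, 57 with only the groups compared, 53 without both libraries that stood apart, 46 with the length trend removed and 38 by library size alone. By library size AT5G48630 turned to -0.57 and -0.68 in WT (T against NHS, P+T against P), -0.61 and -0.61 in hsfa2 and -0.35 and -0.26 in cdk8, and in cdk8 at T MED12 turned to -0.57 and MED13 to -0.15. Against a level difference by library size, TMM turned AT5G48630 in WT at T to 0.20. Members lower in WT at T then numbered 5 and members higher in cdk8 on average 4, and core Mediator genes lower in WT at T were 25 in place of 5. With the length trend removed, MED13 at T turned to 0.11 in WT and 0.15 in hsfa2, AT5G48630 at P+T in WT to -0.12 and MED12 at T in cdk8 to -0.28, members lower in WT at P+T were 2, and MED12 and MED13 in cdk8 against WT at T were 0.25 and 0.20, no longer called. MED12 at T in cdk8 turned to -0.0078 with a mean CPM of at least 1 and to -0.15 without both libraries that stood apart, which also turned AT5G48630 in cdk8 NHS against WT to -0.084. The difference of the CDK8 responses was no longer called with DESeq2 size factors (0.53), every gene (0.57), the length trend removed (0.52), both libraries out (0.56) or only the groups compared (0.55). The causes were not tested.

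With 1 library left out at a time, T against NHS in WT was -0.69 to -0.60 for CDK8 and -0.61 to -0.56 for MED12, and P+T against P was -0.87 to -0.67 for AT5G48640 and -0.047 to 0.17 for AT5G48630. In cdk8 against WT, T gave 0.63 to 0.77 for MED12 and 0.59 to 0.66 for MED13, and the average -2.56 to -2.51 for CDK8, 0.29 to 0.36 for MED12 and 0.31 to 0.41 for MED13. NHS gave -0.084 to 0.14 for AT5G48630, -0.00012 to 0.28 for MED12 and -0.14 to 0.30 for MED13. The T response was -0.11 to 0.046 for MED13 in hsfa2, and in cdk8 -0.16 to 0.0054 for CDK8 and -0.15 to 0.13 for MED12. The CDK8 difference of responses was 0.45 to 0.66 and lost its call in 9 of 12 cases. Members lower numbered 2 to 3 (T, WT) and 3 to 4 (P+T, WT), and members higher 2 to 3 in cdk8 and 0 to 0 in hsfa2 on average. Core Mediator genes lower in WT at T were 3 without WT NHS replicate 2 or 3 or WT T replicate 1 or 2. Same-numbered libraries had correlations of -0.387 to 0.674, all over 0.1 in 27 of 66 pairs of groups. With the replicate block AT5G48630 in cdk8 gave 0.33 at P+T, 0.12 on average and 0.25 for its T response, and MED12 gave 0.61 for the difference of responses, all then called, and no other call changed. The depth limits AT5G48640 most, with as few as 79 counts in a library.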
